A study of Danio rerio with 4 samples.

Results

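The miR-130, miR-301 and miR-454 family was followed in small RNA libraries of whole zebrafish larvae (Tuebingen wild type, 6 dpf). Its members were taken by name, as every miR-130, miR-301 and miR-454 entry of any letter or arm, which gave 8 of the 245 miRNAs in the deposited table. These were miR-130a, miR-130b, miR-130c, miR-301a, miR-301b, miR-301c, miR-454a and miR-454b, and none of the entries carried an arm. There were 4 conditions with 1 library each, every library made from a pool of larvae, and exposures began at the gastrula stage. One pool received 500 μg/L BDE47 (a brominated flame retardant) in DMSO, another received 5 μg/L BDE47 in DMSO, the vehicle pool received DMSO alone, and the blank pool is labelled only as wild type, with no statement on DMSO. Conditions were not replicated, so no p-value was computed and every comparison describes these libraries.

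miRNAs pair through the seed near their 5′ end with sites in mRNAs and lower the output of those mRNAs. The members of this family are known to share their seed and are therefore expected to recognise overlapping sets of targets. In mouse and human cells, miR-130b and miR-301b repress the transcript of ABCA1, which exports cholesterol. In human cells, miR-130 also represses PPARG, a regulator of fat cell formation, and miR-130a represses the homeobox transcripts GAX and HOXA5 in endothelial cells.

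The genes of the family sit together. In the RefSeq annotation of the GRCz12tu assembly, used only for names and neighbours, the 8 miRNAs came from 3 loci. At the first, mir454a, mir301a and mir130a follow each other inside the span of ska2, a gene for a kinetochore protein, and of a long mdh2 gene model. The second holds mir130c-2, mir301b, mir454b and mir130b in this order beside sdf2l1, and the third holds mir130c-1 and mir301c beside nt5c2l1. Each locus thus carried 1 miR-301 gene and at least 1 miR-130 gene, and miR-130c had 2 genes whose reads form a single entry. No listed miRNA from outside the family had a gene within 10000 bp of a member.

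Values are normalized counts, that is, read counts that the authors divided by 1 size factor per library. The listed miRNAs held between 8858169 and 10357704 reads per library, counting the smallest step of each library's values as 1 read, and all 8 members had between 602 and 63815 reads in every library. Bounds in parentheses are 95% limits by the exact Clopper-Pearson method on these reads (a normal approximation for shifts of a ratio). They cover counting error only, because PCR copies are not independent molecules and the pools were not replicated. Reads that match several closely related members may have been assigned to any of them, so sums over members are given too. In whole larvae, fewer cells that make a miRNA and less of it per cell cannot be told apart.

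The 3 miR-301 members were lower in both BDE47 libraries than in either control library (blank or DMSO vehicle), a position that 21.8% of all miRNAs held, while the 5 miR-130 and miR-454 members stayed within 1.4-fold of both controls. miR-301b had 1162 normalized counts in the blank, 2108 in the DMSO vehicle, 822 under 5 μg/L BDE47 and 635 under 500 μg/L. miR-301c had 13296, 20067, 10353 and 8211 normalized counts in the same order. miR-301a had 20216, 25721, 16930 and 13683. All 3 were highest in the DMSO vehicle, next in the blank, lower under 5 μg/L and lowest under 500 μg/L. This order of the 4 libraries was found in 33 of the 234 miRNAs (14.1%) that had a mean of at least 10 normalized counts, a filter that all 8 members passed.

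**Figure D1:**
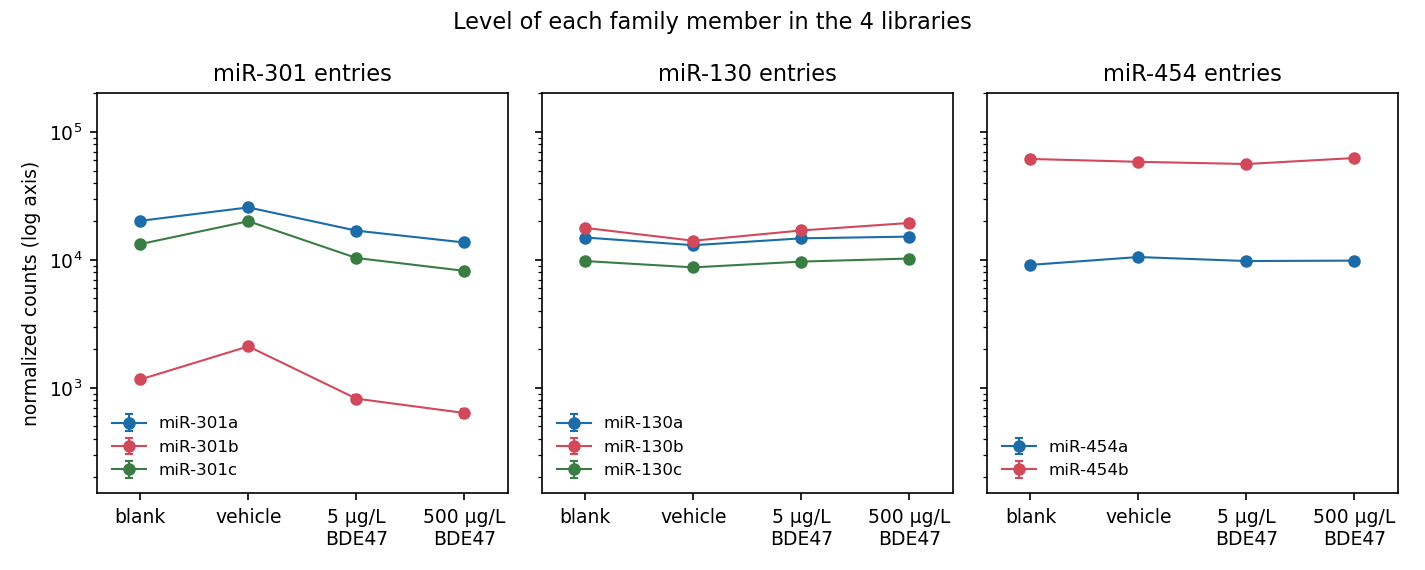
Normalized counts (log axis) of the 8 members in the blank, DMSO vehicle, 5 μg/L BDE47 and 500 μg/L BDE47 libraries, with exact Poisson 95% counting intervals that are mostly smaller than the points. The miR-301 members peak in the DMSO vehicle and are lowest under 500 μg/L, with miR-301b at 635 normalized counts there. The miR-130 and miR-454 members vary less.

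Against the DMSO vehicle, 2 of the 8 members were more than 2-fold lower under 500 μg/L BDE47 and 0 were more than 2-fold higher, where 7.69% of all 234 miRNAs were more than 2-fold lower and 1.28% more than 2-fold higher. Log2 ratios were taken after adding 1 normalized count. miR-301b had a log2 ratio of -1.73 (95% counting interval -1.86 to -1.60), the fourth lowest of the 234, and stood at 0.301 of the DMSO vehicle. miR-301c followed with -1.29 (-1.33 to -1.25) and ranked 10 from the lowest. miR-301a had -0.91 (-0.94 to -0.88) and ranked 24 from the lowest, just short of 2-fold.

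Under 5 μg/L BDE47, 1 of the 8 members was more than 2-fold below the DMSO vehicle, against 2.99% of all miRNAs. This was miR-301b, with a log2 ratio of -1.36 (-1.47 to -1.24). miR-301c had -0.95 (-0.99 to -0.92) and miR-301a -0.60 (-0.63 to -0.58). The order miR-301b, miR-301c, miR-301a was thus the same at both concentrations, and the intervals of these 3 members did not overlap at either concentration.

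The control libraries also differed in these members. The blank lay below the DMSO vehicle for miR-301b with a log2 ratio of -0.86 (-0.96 to -0.75), for miR-301c with -0.59 (-0.63 to -0.56) and for miR-301a with -0.35 (-0.37 to -0.32). None of the 8 members passed 2-fold between the controls, where 1.28% of all miRNAs were more than 2-fold lower in the blank. At a limit of 1.5-fold, 2 members (miR-301b and miR-301c) were lower in the blank, as were 11.1% of all miRNAs, and 3 (all miR-301) were lower under 5 μg/L than in the DMSO vehicle, as were 12.8%. Again miR-301b differed the most of the 3 and miR-301a the least. The comparisons with the DMSO vehicle share that library, so a high level of miR-301 in it enters each of them.

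Set against the blank instead, the 3 miR-301 members remained lower but none passed 2-fold, where 0.427% of all miRNAs were more than 2-fold lower under 500 μg/L and 0.0% under 5 μg/L. Under 500 μg/L the log2 ratios to the blank were -0.87 (-1.02 to -0.73) for miR-301b, -0.70 (-0.74 to -0.65) for miR-301c and -0.56 (-0.60 to -0.53) for miR-301a. miR-301b ranked 3 from the lowest of the 234 miRNAs in this comparison, miR-301c 13 and miR-301a 21. Under 5 μg/L they were -0.50 (-0.63 to -0.37), -0.36 (-0.40 to -0.32) and -0.26 (-0.29 to -0.23) in the same order of members. The lower level of miR-301 in the BDE47 libraries was thus seen against each control, and its size depended on which control was used.

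The comparison of the BDE47 libraries with each other uses neither control. Under 500 μg/L against 5 μg/L, the log2 ratio was -0.37 (-0.53 to -0.22) for miR-301b, -0.33 (-0.38 to -0.29) for miR-301c and -0.31 (-0.34 to -0.27) for miR-301a. Here the 3 intervals overlapped, unlike in the comparisons with the DMSO vehicle. None of the 8 members differed more than 2-fold between these libraries. Among all 234 miRNAs, 2 (0.855%) were more than 2-fold lower under 500 μg/L and 2 more than 2-fold higher.

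**Figure D2:**
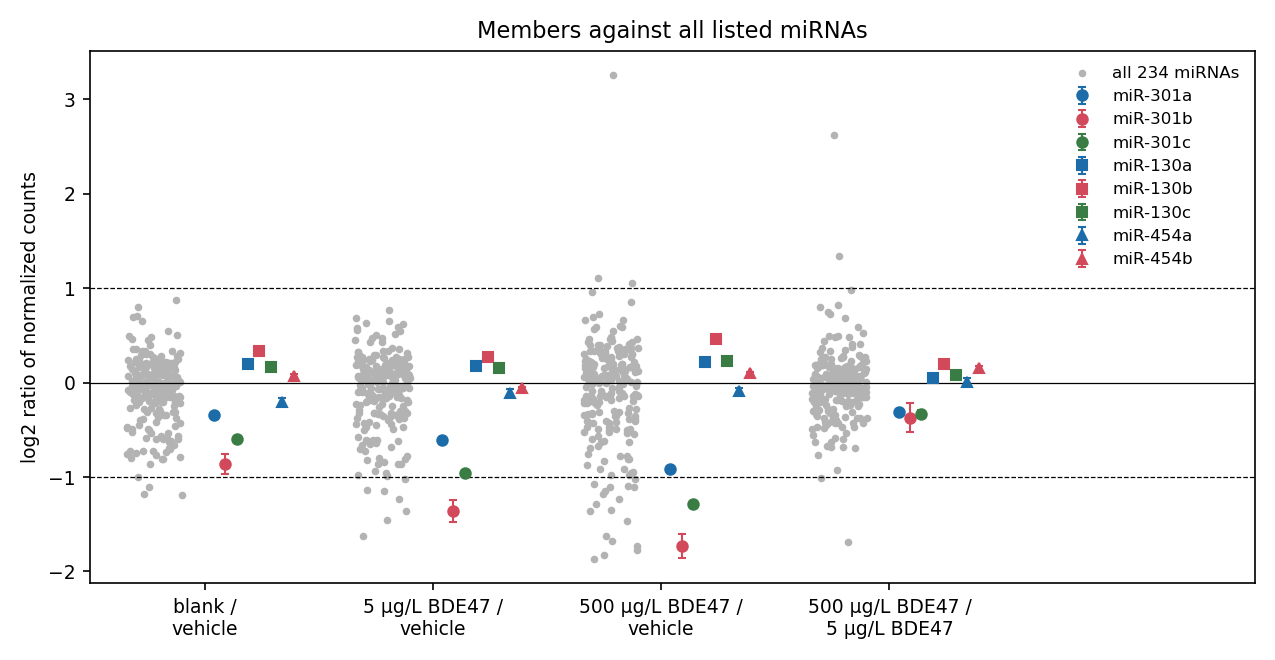
Log2 ratios of normalized counts for the 8 members (coloured, with 95% counting intervals) beside all 234 miRNAs that passed the filter (grey), for blank over vehicle, 5 μg/L BDE47 over vehicle, 500 μg/L BDE47 over vehicle, and 500 μg/L over 5 μg/L BDE47; dashed lines mark 2-fold. The miR-301 members lie below 0 in each comparison, down to -1.73 for miR-301b under 500 μg/L over vehicle, and the miR-130 members lie above 0.

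The proportions of the 3 miR-301 members also differed between libraries, most of all in the DMSO vehicle. The reads of miR-301a were 17.4 times those of miR-301b in the blank (16.4 to 18.5), 12.2 times in the DMSO vehicle (11.7 to 12.7), 20.6 times under 5 μg/L BDE47 (19.2 to 22.1) and 21.5 times under 500 μg/L (19.8 to 23.4). The DMSO vehicle had the lowest ratio, outside the intervals of the other libraries, whereas the intervals of the BDE47 libraries overlapped. The ratio of miR-301a to miR-301c gave the same picture, with 1.52 in the blank, 1.28 in the DMSO vehicle, 1.64 under 5 μg/L and 1.67 under 500 μg/L. The reads of miR-301b, the member with the fewest reads, were thus highest relative to those of miR-301a in the DMSO vehicle.

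Relative to the DMSO vehicle, the 3 miR-130 members ran the other way from miR-301. miR-130b had 17785 normalized counts in the blank, 14120 in the DMSO vehicle, 16993 under 5 μg/L BDE47 and 19438 under 500 μg/L. miR-130a had 14961, 13025, 14745 and 15207 in the same order, and miR-130c had 9795, 8738, 9700 and 10249. All 3 were lowest in the DMSO vehicle and highest under 500 μg/L, with the blank above 5 μg/L between them, an order that 8.97% of the 234 miRNAs had. Parts of this order lay within counting error. For miR-130a and miR-130c the interval of 5 μg/L over the blank held 0. For miR-130a that of 500 μg/L over the blank held 0 too.

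Under 500 μg/L BDE47, the log2 ratio to the DMSO vehicle was 0.46 (0.43 to 0.49) for miR-130b, 0.23 (0.19 to 0.27) for miR-130c and 0.22 (0.19 to 0.26) for miR-130a. Under 5 μg/L it was 0.27 (0.24 to 0.30), 0.15 (0.11 to 0.19) and 0.18 (0.15 to 0.21). These values depend on the size factors. With libraries scaled to their totals of listed reads instead, those under 5 μg/L were 0.15, 0.029 and 0.058. The blank lay above the DMSO vehicle too, by slightly more than 5 μg/L did, with 0.33 (0.30 to 0.36), 0.16 (0.12 to 0.21) and 0.20 (0.17 to 0.23). Against the blank, little was left of these differences. The log2 ratios under 500 μg/L were then 0.13 (0.098 to 0.16) for miR-130b, 0.065 (0.024 to 0.11) for miR-130c and 0.023 (-0.010 to 0.057) for miR-130a. Those under 5 μg/L were -0.066 (-0.096 to -0.035), -0.014 (-0.055 to 0.027) and -0.021 (-0.054 to 0.012).

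The miR-454 members were the steadiest. miR-454b, the member with the highest counts, had 61554 normalized counts in the blank, 58477 in the DMSO vehicle, 56191 under 5 μg/L BDE47 and 62592 under 500 μg/L, so its highest level was 1.11 times its lowest. miR-454a had 9139, 10531, 9794 and 9871 in the same order, and its highest level was 1.15 times its lowest. Under 500 μg/L against the DMSO vehicle, the log2 ratio was 0.098 (0.082 to 0.11) for miR-454b and -0.093 (-0.13 to -0.054) for miR-454a. The direction for miR-454a turned with the control, since the 500 μg/L library stood above the blank by 0.11 (0.069 to 0.15). By comparison, the highest level was 3.32 times the lowest for miR-301b, 2.44 times for miR-301c and 1.88 times for miR-301a.

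Summed over the family, the difference was smaller than for miR-301 alone. The 8 members together had 139887 normalized counts under 500 μg/L BDE47 against 152787 in the DMSO vehicle, a log2 ratio of -0.13 (-0.14 to -0.12). Under 5 μg/L the sum was 135529, a log2 ratio of -0.17 (-0.18 to -0.16) to the DMSO vehicle, and in the blank it was 147907, a log2 ratio of -0.047 (-0.057 to -0.037). The 3 miR-301 members alone summed to 22529 under 500 μg/L against 47896 in the DMSO vehicle, a log2 ratio of -1.09 (-1.11 to -1.07). The 3 miR-130 members summed to 44894 and 35883 normalized counts in these libraries (log2 ratio 0.32, 0.30 to 0.34), and the miR-454 members to 72464 and 69008 (0.071, 0.056 to 0.085). The median log2 ratio of the 8 members was 0.0024 under 500 μg/L, beside 0.021 over all 234 miRNAs, and it was -0.081 under 5 μg/L, beside 0.019.

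The makeup of the family therefore differed between libraries. miR-301 held 16.1% of the family's reads under 500 μg/L BDE47 (15.9 to 16.3%) against 31.3% in the DMSO vehicle (31.1 to 31.6%). The share was 20.7% under 5 μg/L (20.5 to 21.0%) and 23.4% in the blank (23.2 to 23.7%). miR-454b took the largest share in every library, 44.7% under 500 μg/L and 38.3% in the DMSO vehicle. As a share of all listed reads, the family was at 1.43% under 500 μg/L and 1.64% in the DMSO vehicle.

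The members of a locus could be set against each other within a library, where the size factor drops out of the ratio. At the ska2 locus, the reads of miR-301a were 1.35 times those of miR-130a in the blank (1.32 to 1.38), 1.97 times in the DMSO vehicle (1.94 to 2.02), 1.15 times under 5 μg/L BDE47 (1.12 to 1.17) and 0.900 times under 500 μg/L (0.879 to 0.921). miR-301a thus had more reads than its neighbour in 3 libraries and fewer under 500 μg/L. Its ratio to miR-454a was 2.21, 2.44, 1.73 and 1.39 in the same order. The ratio of miR-130a to miR-454a, neither of them a miR-301, was 1.64, 1.24, 1.51 and 1.54, with the low value in the DMSO vehicle.

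The other loci gave the same order of libraries. The miR-130c entry joins the reads of a gene at each of them, so its ratio to miR-301c is not confined to 1 locus. The ratio of miR-301c to miR-130c was 1.36 in the blank (1.32 to 1.39), 2.30 in the DMSO vehicle (2.24 to 2.35), 1.07 under 5 μg/L BDE47 (1.04 to 1.10) and 0.801 under 500 μg/L (0.778 to 0.826). The ratio of miR-301b to miR-130b was 0.0654, 0.149, 0.0484 and 0.0327. Their genes belong to the same locus through mir454b, but are not themselves within 10000 bp of each other. The ratio of miR-301b to miR-454b was 0.0189, 0.0360, 0.0146 and 0.0102. In all of these, a miR-301 member was highest relative to the other member of its locus in the DMSO vehicle and lowest under 500 μg/L, and the blank stood between the DMSO vehicle and 5 μg/L. This order follows from the levels of the members given above, so the loci are no separate results.

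**Figure D3:**
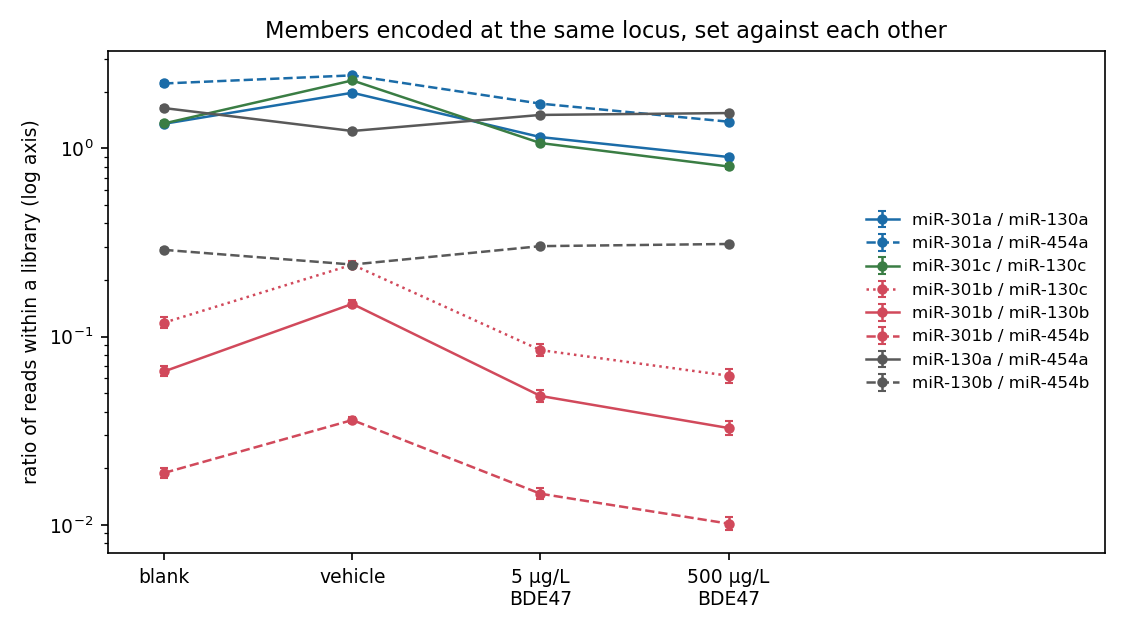
Ratio of the reads of 2 members encoded at the same locus within each library (log axis), with 95% counting intervals, in the blank, DMSO vehicle, 5 μg/L BDE47 and 500 μg/L BDE47 libraries. The miR-130c entry joins the reads of genes at 2 loci. Ratios with a miR-301 member on top (coloured) are highest in the DMSO vehicle and lowest under 500 μg/L, as for miR-301a to miR-130a with 1.97 and 0.900, while the ratios of miR-130 to miR-454 (grey) are lowest in the DMSO vehicle.

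On the log2 scale, the ratio of miR-301a to miR-130a shifted by -1.13 under 500 μg/L BDE47 relative to the DMSO vehicle (-1.18 to -1.09), that of miR-301c to miR-130c shifted by -1.52 (-1.57 to -1.46) and that of miR-301b to miR-454b by -1.83 (-1.96 to -1.70). Against the blank the same shifts were -0.59 (-0.63 to -0.54), -0.76 (-0.82 to -0.70) and -0.90 (-1.04 to -0.75). The family held 8 pairs of members with genes within 10000 bp of each other. Of these, 4 shifted more than 2-fold between the 500 μg/L and DMSO vehicle libraries. Each of the 4 held a miR-301 member, which follows from the levels of the members and is no separate result. Among the other pairs of listed miRNAs with genes that close, 15 of 121 (12.4%) shifted as far. Many pairs share a member, so they are not independent.

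The profile of miR-301b over the 4 libraries was compared with those of the other 233 miRNAs that passed the filter, as the root mean square difference of log2 levels after each miRNA was centred on its own mean. This is a description over 4 libraries. The closest profiles outside the family were those of miR-219 (0.13), miR-142b-5p (0.14), miR-18b-5p (0.15), miR-144 (0.16) and miR-30e-5p (0.17). miR-219 is known from myelinating glia, miR-142 from white blood cells and miR-144 from red blood cells, while miR-18b belongs to a cluster of the miR-17 group. miR-301c came in place 6 of 233, with 0.17, and miR-301a in place 16, with 0.32. The miR-454 members stood at places 98 and 119 and the miR-130 members at places 168 to 211.

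The 5 closest miRNAs spanned a wide range of normalized counts. miR-30e-5p had 76063 normalized counts in the blank, 114119 in the DMSO vehicle, 59753 under 5 μg/L BDE47 and 44923 under 500 μg/L. miR-219 had 3408, 7323, 3111 and 2143 in the same order, and miR-144 had 256, 581, 188 and 180. Like miR-301b, all 5 were highest in the DMSO vehicle and lowest under 500 μg/L, which follows from choosing them by likeness to it. For miR-144, the counting interval under 500 μg/L over 5 μg/L held 0 (-0.36 to 0.25). Other miRNAs known from the same cells did not all share this profile. miR-451, the partner of miR-144 in red blood cells, had 1660 normalized counts in the blank, 1451 in the DMSO vehicle, 1388 under 5 μg/L and 2302 under 500 μg/L, and its log2 ratio under 500 μg/L to the DMSO vehicle was 0.67 (0.57 to 0.76), against -1.68 (-1.94 to -1.44) for miR-144. Of 6 entries known from white blood cells (miR-142, miR-150, miR-155 and miR-223), 4 were below the DMSO vehicle under 500 μg/L. Of all 234 miRNAs, 113 were below it. The 4 were miR-155 and the miR-142 entries, whereas miR-150 stood at 0.59 (0.45 to 0.73) and miR-223 at 0.48 (0.24 to 0.73). The 6 summed to 2696 normalized counts in the blank, 3497 in the DMSO vehicle, 2739 under 5 μg/L and 2358 under 500 μg/L. Of the glial miRNAs, miR-338 had a log2 ratio of -0.22 (-0.30 to -0.14) to the DMSO vehicle under 500 μg/L, against -1.77 for miR-219. These lists were chosen after the values were seen, and the part of such cells in the levels of miR-301 was not tested.

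**Figure D4:**
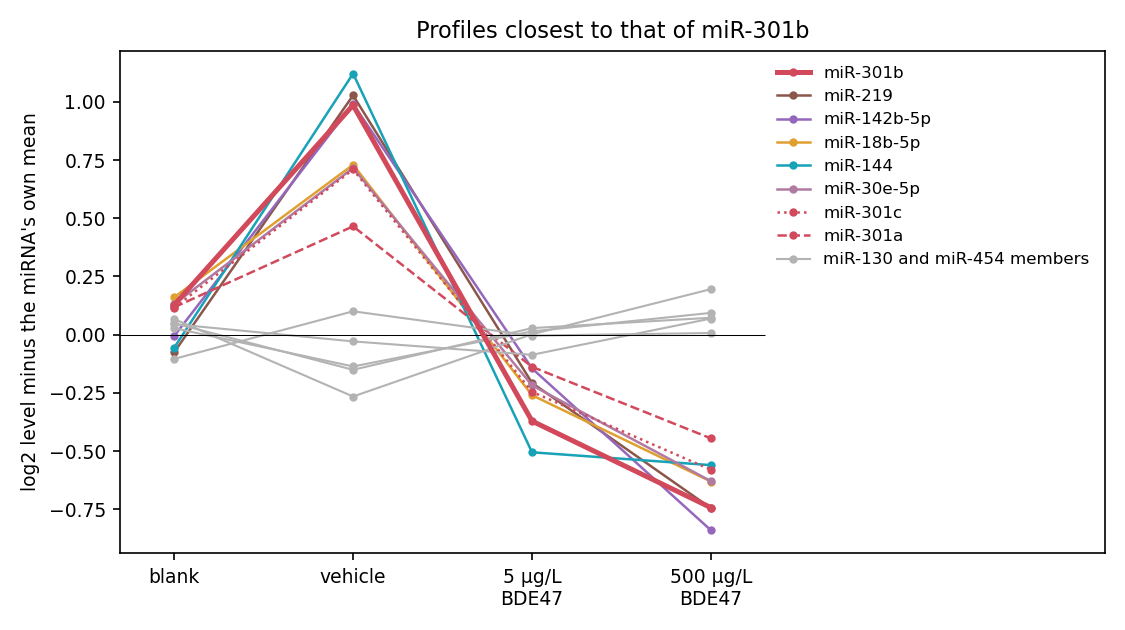
Log2 level of each miRNA minus its own mean over the blank, DMSO vehicle, 5 μg/L BDE47 and 500 μg/L BDE47 libraries, for miR-301b, the other members and the 5 closest miRNAs outside the family. miR-219 lies closest to miR-301b, at a root mean square difference of 0.13, and the miR-130 and miR-454 members (grey) vary less than the miR-301 members.

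miR-19, miR-148 and miR-152 are known to carry seeds that overlap the family's seed when shifted by 1 base, and the table held 8 entries with these numbers, other arms included. Of these, 1 was more than 2-fold lower under 500 μg/L BDE47 than in the DMSO vehicle, where 7.69% of all miRNAs were, and 0 were under 5 μg/L (2.99% of all) or in the blank (1.28%). It was miR-19a-5p, with 193 normalized counts under 500 μg/L against 417 in the DMSO vehicle and a log2 ratio of -1.11 (-1.37 to -0.86). As the other arm of its hairpin, it does not carry that seed, and neither does miR-19b-5p. The median log2 ratio of the 8 entries to the DMSO vehicle was -0.12 under 500 μg/L, with a range of -1.11 to 0.69. Of these entries, 4 were lower and 4 higher, beside 113 lower and 121 higher of all 234 miRNAs. Against the blank, all 8 were lower under 500 μg/L, with a median of -0.33, whereas 3 members of the family were lower and 5 higher. Of all 234 miRNAs, 116 were lower. The counting intervals of miR-152 (-0.12 to 0.030), miR-19d (-0.064 to 0.032) and miR-19b-5p (-0.97 to 0.11) held 0. Under 5 μg/L, 7 of the 8 entries and 7 of the 8 members were below the blank, beside 122 of all 234 miRNAs. Among those below it, the intervals of miR-19c, miR-130a and miR-130c held 0.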

How the data were processed

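Whole larvae were sampled as 4 pools, and 1 small RNA library was sequenced from each. Reads were cleaned by base quality, size and adaptor, then aligned by the authors to miRBase entries of zebrafish. The deposited values are a signal: the authors counted reads per miRNA and divided the counts by 1 size factor per library. All values (100%) were whole multiples of 1 number per library within 0.01 of a read, which was taken as 1 read. Few low values were at hand to check this step, so these reads served only for totals, counting intervals, shares and ratios within a library. How reads matching several entries were counted is not given in the sources used here.

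Conditions came from the sample labels. Ratios between libraries were taken on the log2 scale with a pseudocount of 1, and miRNAs averaging below 10 normalized counts were left out, leaving 234. The planned count test on the reads was not run because few low values were at hand to check the recovered reads. It would have compared libraries, not conditions. Of 212 hairpin names, 202 matched a RefSeq gene (GRCz12tu). All members were named, with the 5 profiles closest to miR-301b and miRNAs of overlapping seed beyond 2-fold. Members and lists were chosen with earlier results of these data known. Calculations were tested on simulated data. Alternatives were pseudocounts of 0.1 and 10, other filters, scalings and controls, a 1.5-fold limit, and sums leaving out a member. The software was Python 3.11.15 with scipy 1.17.1, numpy 2.4.6, matplotlib 3.10.9 and pandas 2.3.3.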

Additional observations from a re-analysis of the deposited data

How the results depend on the processing

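Set against the blank instead, 0 members passed 2-fold under 500 μg/L and 0 under 5 μg/L, beside 2 and 0 of all miRNAs. The log2 ratio of the family sum to the blank was -0.080 and -0.13. With the mean of both controls, 2 members passed under 500 μg/L, both lower, and 0 passed under 5 μg/L. Among all miRNAs, 12 and 2 passed in either direction. The family sum was then at -0.10 under 500 μg/L and -0.15 under 5 μg/L, and the member median was at 0.033 and -0.050. When libraries were scaled to their listed totals, the median of all miRNAs moved by -0.12 under 5 μg/L, by -0.077 under 500 μg/L and by -0.030 for the blank. It brought the family sum to -0.29, -0.20 and -0.077 and the member median to -0.20, -0.074 and -0.095 in the same order. With this scaling, 2 members were beyond 2-fold under 5 μg/L, beside 11 of all miRNAs. miR-130b, miR-130c and miR-130a were then at 0.15, 0.029 and 0.058 under 5 μg/L and at 0.38, 0.15 and 0.15 under 500 μg/L. miR-454b was at 0.021 under 500 μg/L. All of these lay below the counting intervals found with the authors' size factors. A 1.5-fold limit passed 3 members under 5 μg/L and 2 in the blank, all lower than the DMSO vehicle, as were 12.8% and 11.1% of all miRNAs at that limit. Without miR-454b, the member with the highest counts, the family sum was at -0.25 under 5 μg/L, -0.29 under 500 μg/L and -0.13 for the blank. Without miR-301b it was at -0.11 under 500 μg/L and -0.16 under 5 μg/L. With the blank as control, miR-454a turned from lower to higher under 500 μg/L (0.11) and 5 μg/L (0.10), and miR-130a (-0.021), miR-130b (-0.066) and miR-130c (-0.014) turned from higher to lower under 5 μg/L, where the counting intervals of miR-130a and miR-130c held 0. With the mean of both controls, miR-454a under 500 μg/L was at 0.0053. These follow from the levels of the control libraries themselves. All 66 alternative log2 ratios of the miR-301 members against a control were below 0, those of the blank to the DMSO vehicle included. Other filters and scaling by the median ratio over the filtered miRNAs left these ratios unchanged, and pseudocounts hardly moved them. Only total scaling and the choice of control changed them, so the 66 values are not 66 separate checks. The 5 profiles closest to that of miR-301b were the same 5 miRNAs after total scaling and with a mean of at least 100. The count test on the reads was not run. No paired analysis was possible because each condition has 1 library, and for the same reason no replicate could be left out. Precision beyond counting error is limited by the single library per condition.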
